A study of Drosophila simulans with 22 samples.

Results

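Neurogenesis in the fly embryo was followed through 8 genes that mark its successive steps. A list of 10 proneural and neuroblast genes was fixed by name and FlyBase number (ac, sc, l(1)sc, ase, wor, dpn, pros, mira, insc and nerfin-1), and a gene was included where its D. melanogaster number stood in the gene table. Of the 10 genes, 8 were found among the 8460 genes of the table: sc (FBgn0004170), l(1)sc (FBgn0002561), ase (FBgn0000137), wor (FBgn0001983), dpn (FBgn0010109), insc (FBgn0011674), pros (FBgn0004595) and nerfin-1 (FBgn0028999). ac and mira were not analysed here. The series holds 22 samples of whole Drosophila simulans embryos of the w[501] strain, laid within 1 h each and left to develop, so that they span embryogenesis hour by hour up to 21-22 h. RAMPAGE, which sequences cDNAs that reach the capped 5′ end of a transcript, was used to count transcription start sites, and the values are in RPM, a unit that sets the read total of every sample to the same size. Each hour has 1 sample of this 1 strain, with no treatment, and all samples were barcoded and processed as 1 pooled library. A read marks 1 cDNA end whatever the transcript length, so RPM levels of genes are compared without scaling for length. Whether reads were captured and assigned equally between genes was not tested.

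In the embryo, proneural proteins of the basic helix-loop-helix type give small groups of ectoderm cells the competence to become neural, and 1 cell of each group leaves the surface as a neuroblast, the stem cell of the central nervous system. A neuroblast divides unequally many times: its daughter, the ganglion mother cell, receives fate determinants such as Prospero and divides again into neurons or glia. The achaete-scute complex, to which ac, sc, l(1)sc and ase belong, is the best known set of proneural genes in D. melanogaster, where the roles named here were worked out.

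Depth differed 53.3-fold between samples, with totals of 325359 to 17332321 reads and a median of 2879694 reads. A single read was worth 0.0577 to 3.07 RPM, so a floor of 3 reads lay between 0.173 RPM at 9-10 h and 9.22 RPM at 12-13 h. The 12-13 h sample was the shallowest, and values there rested on at most 20 reads for each of the 8 genes. Intervals are 95% Wilson intervals on reads and cover counting error only. In whole embryos, fewer cells of a type and less RNA per cell cannot be told apart.

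All 8 genes changed over the 22 hours by a smooth curve (limma, Benjamini-Hochberg adjusted p between 1.17e-14 for l(1)sc and 4.31e-05 for pros). Such a change was the rule: 92.4% of the 8249 genes tested were called. A fitted span of at least 5-fold was found for 8 of the 8 genes, against 63.9% of all genes tested, and the median fitted span was 6.43 on the log2(RPM + 1) scale for the 8 genes and 2.82 for all genes. The residual scatter of hourly samples around the curve was alike, with a median SD of 0.59 for the 8 genes and 0.56 for all genes. The highest hourly values had a median of 206 RPM for the 8 genes and 58.3 RPM for all genes tested.

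**Figure D1:**
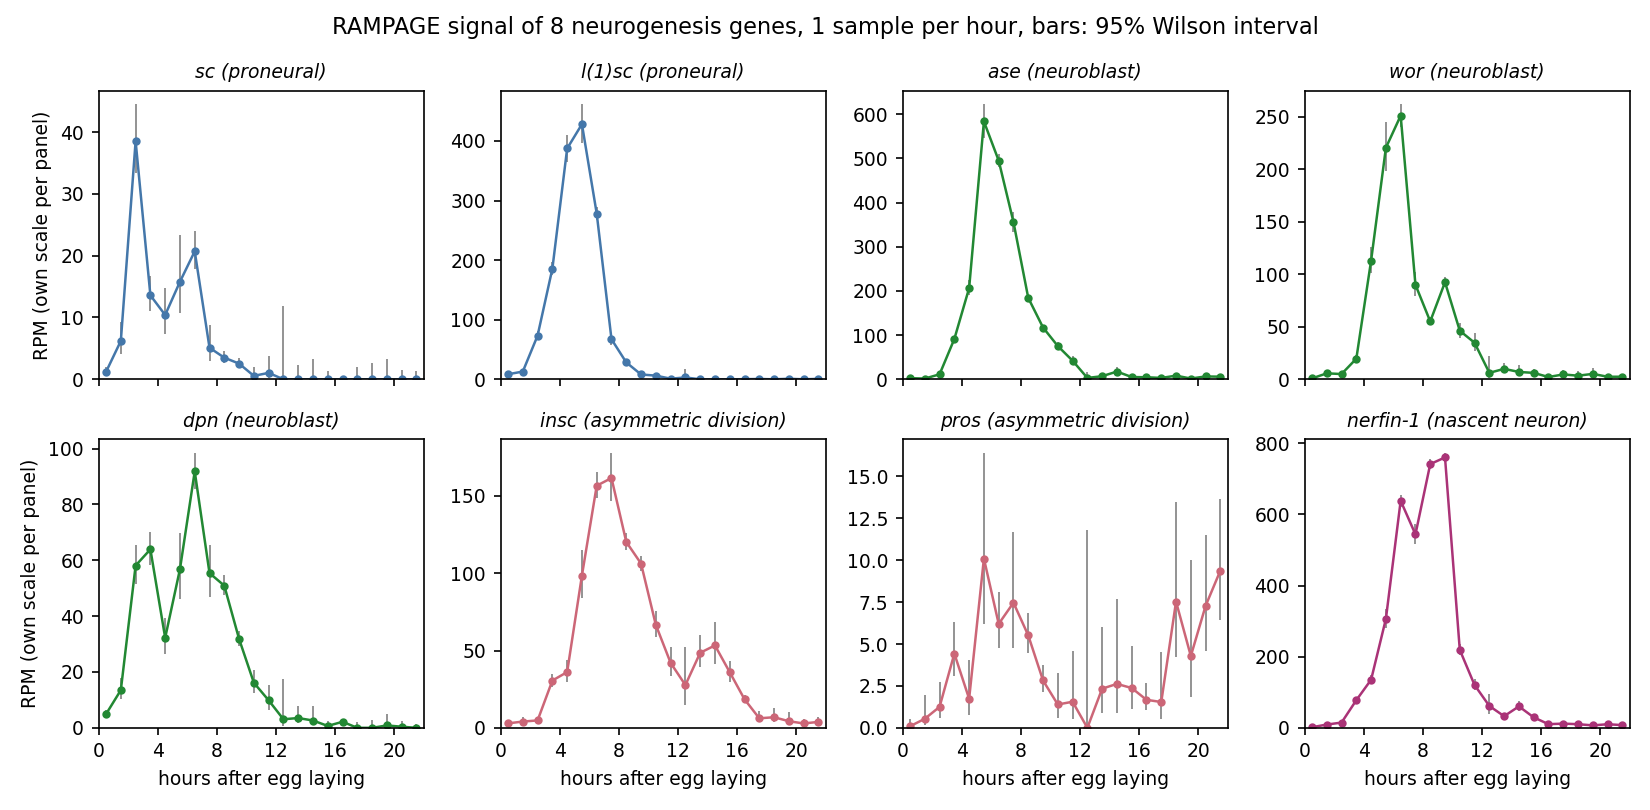
RPM of each gene (vertical axis, own scale per panel) against hours after egg laying, 1 point per sample, with 95% Wilson intervals as grey bars. The proneural genes sc and l(1)sc were highest at 2-3 h and 5-6 h, nerfin-1 was highest at 9-10 h, and pros stayed at or under 10.1 RPM.

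The promoters of 6 genes could be placed, because the 22 read counts of the gene equaled the sum over the transcription start site clusters (TSCs, the peaks that stand for promoters) of exactly 1 gene of the TSC list. Positions are on the FlyBase r1.4 genome, counted from 1. The proneural gene sc lay at X:202384-202411, a TSC of 28 bp on the plus strand. The proneural gene l(1)sc had a TSC of 23 bp at X:215905-215927, and ase, the member of the complex that is active in neuroblasts rather than in proneural groups, one of 185 bp at X:261750-261934, both also on the plus strand. The 3 genes of the complex thus lay in 1 direction within 59.4 kb, with 13.5 kb between the starts of the sc and l(1)sc TSCs and 45.8 kb between those of l(1)sc and ase.

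Outside the complex, wor had 1 TSC of 29 bp at 2L:15185037-15185065 on the minus strand, and insc 1 TSC of 86 bp at 2R:15377077-15377162, also on the minus strand. The same insc interval was listed for 1 other gene number with 3 TSCs, so its 6725 reads cannot be given to insc alone and insc values are uncertain in this respect. nerfin-1 had 3 TSCs on the plus strand of 3L, at 551699-551817, 552564-552683 and 552933-553094, which held 96.6%, 2.43% and 0.997% of its reads. The median width of a gene-assigned TSC was 52 bp and 41.9% were at most 30 bp wide, a group that included those of sc, l(1)sc and wor. The counts of dpn and pros equaled those of no listed TSC, pair of TSCs or gene, and differed from the nearest gene by 932 and 114 reads, so which promoters their values stand for was not resolved.

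Of the proneural genes, sc was weak and early. It held 0 RPM at its lowest, 0.797 RPM at the median and 38.5 RPM at the highest hour, 2-3 h (interval 33.4 to 44.5 RPM), and its 658 reads made it the gene with the second fewest reads of the 8. The value at 2-3 h stood above both neighboring hours, with 6.21 RPM at 1-2 h and 13.6 RPM at 3-4 h. A lower maximum followed. sc held 10.4 RPM at 4-5 h (interval 7.29 to 14.9 RPM) and 20.7 RPM at 6-7 h, which is 1.99 times higher. From 12-13 h to 21-22 h no sc read was counted in any of 10 samples. Over their 26217854 reads a count of 0 allows up to 0.114 RPM, so sc was at least 337-fold lower in these hours together than at 2-3 h.

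The neighboring proneural gene l(1)sc, the one of the complex most widely used in early neuroblast formation, was higher than sc in every hour from 0-1 h to 10-11 h, and both held 2 reads at 11-12 h. It held 0 RPM at its lowest, 4.60 RPM at the median and 428 RPM at the highest hour, 5-6 h (interval 397 to 462 RPM), next to 387 RPM at 4-5 h. Its level passed 50% of the highest hour in 3 hours, 4-5 h to 6-7 h, and dropped to 67.2 RPM at 7-8 h and 28.3 RPM at 8-9 h. The ratio of l(1)sc to sc reads within a sample was 1.90 at 2-3 h, 13.7 at 3-4 h and 37.2 at 4-5 h. It was 27.1 at 5-6 h, 13.4 at 6-7 h, 13.2 at 7-8 h, 8.10 at 8-9 h and 3.18 at 9-10 h. The levels of the pair thus did not change in step over these hours. On the log2 scale over all 22 hours their correlation was 0.927, a description that counts the 10 late hours without an sc read.

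Of the neuroblast factors, ase was highest in the same hour as l(1)sc, and wor and dpn were highest at 6-7 h. ase held 1.62 RPM at its lowest hour, 9.73 RPM at the median and 583 RPM at 5-6 h (interval 547 to 622 RPM), above both neighboring hours with 206 RPM at 4-5 h and 495 RPM at 6-7 h. Its decline was gradual, with 356, 184, 117, 75.2 and 42.0 RPM in the 5 hours from 7-8 h to 11-12 h. wor, a zinc finger factor of the Snail family that keeps neuroblasts cycling, held 0.837 RPM at its lowest hour, 6.57 RPM at the median and 251 RPM at 6-7 h (interval 241 to 262 RPM), which overlapped the interval of the 220 RPM at 5-6 h.

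A rise from 8-9 h to 9-10 h set wor apart from ase, while both genes fell from 7-8 h to 8-9 h. wor held 90.0 RPM at 7-8 h (interval 79.1 to 102 RPM) and 55.1 RPM at 8-9 h (interval 51.5 to 59 RPM). At 9-10 h it held 92.4 RPM (interval 88.0 to 97.1 RPM), which is 1.68 times higher than at 8-9 h. ase held 356, 184 and 117 RPM in these hours. The ratio of ase to wor reads was 3.95 at 7-8 h, 3.34 at 8-9 h and 1.27 at 9-10 h. The wor rise rests on the 8-9 h and 9-10 h samples, 1 for each hour, and whether it belongs to these samples or to the stage was not tested. Over all 22 hours ase and wor correlated at 0.937 on the log2 scale.

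dpn, which encodes a repressor of the Hairy family that maintains neuroblast self-renewal and in D. melanogaster also acts in sex determination in early embryos, had a broad early profile. It held 0 RPM at its lowest, 7.39 RPM at the median and 91.9 RPM at the highest hour, 6-7 h (interval 85.7 to 98.5 RPM). Like sc it showed a dip, with 63.9 RPM at 3-4 h, 32.3 RPM at 4-5 h (interval 26.3 to 39.5 RPM) and 91.9 RPM at 6-7 h. Between 2-3 h and 8-9 h, dpn was at or above 50% of its highest value in 6 hours, all but 4-5 h. The lowest values of the sc and dpn dips fell in the same sample, 4-5 h. pros also held less there than in the hours beside it (1.73 RPM on 5 reads, with 4.43 RPM at 3-4 h and 10.1 RPM at 5-6 h). The other 5 genes, l(1)sc, ase, wor, insc and nerfin-1, held more than at 3-4 h. Of sc, dpn and pros, only dpn had an interval at 4-5 h below those of both neighboring hours. The sc interval (7.29 to 14.9 RPM) overlapped those of 3-4 h (11.1 to 16.7 RPM) and 5-6 h (10.7 to 23.3 RPM). The pros interval (0.741 to 4.06 RPM) overlapped that of 3-4 h (3.10 to 6.32 RPM). The samples were normalized to total reads, and the 4-5 h values rest on 30 sc reads and 93 dpn reads in 1 sample. Whether the low values belong to this sample or to the stage was not tested.

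Of the genes of unequal division, insc, which orients the neuroblast spindle and places determinants at 1 pole, was at or above 50% of its highest value from 5-6 h to 9-10 h. It held 2.83 RPM at its lowest hour, 33.3 RPM at the median and 162 RPM at 7-8 h (interval 147 to 178 RPM), close to the 157 RPM at 6-7 h. Its tail was longer than those of the neuroblast factors: insc held 42.0 RPM at 11-12 h, 27.7 RPM at 12-13 h (9 reads), 48.5 RPM at 13-14 h, 53.3 RPM at 14-15 h (interval 41.5 to 68.5 RPM), 36.0 RPM at 15-16 h and 18.5 RPM at 16-17 h. The ratio of insc to ase reads was 0.169 at 5-6 h, 1.00 at 11-12 h and 6.92 at 13-14 h. It was 3.05 at 14-15 h and 7.07 at 15-16 h. From 13-14 h to 15-16 h these ratios rest on 12, 20 and 15 ase reads. Since the insc TSC interval is also listed for another gene number, the tail and the ratios may not be those of insc alone.

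pros, the homeodomain factor that enters the nucleus of the ganglion mother cell and ends self-renewal, had the lowest maximum of the 8 genes and was the least confined in time. Since its reads were tied to no listed promoter, this level and profile may not be those of its main promoter. It held 0 RPM at its lowest, 2.50 RPM at the median and 10.1 RPM at 5-6 h (interval 6.22 to 16.4 RPM, 16 reads), and its 366 reads in all allowed no hour to be called the highest. A first phase of 5.52 to 10.1 RPM covered 5-6 h to 8-9 h. The values at 10-11 h and 11-12 h were 1.39 and 1.56 RPM, and those of 18-19 h to 21-22 h were 7.53, 4.28, 7.28 and 9.39 RPM. Of the 8 genes, pros alone had hours above 50% of its highest value after 10 h (18-19 h, 20-21 h and 21-22 h), and the values of these last 4 hours rest on 11, 5, 18 and 27 reads.

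nerfin-1, a zinc finger factor made in cells that are about to become neurons and needed for axon guidance, was the strongest gene and the last of the high ones to peak. It held 1.77 RPM at its lowest hour, 46.5 RPM at the median and 760 RPM at 9-10 h (interval 747 to 773 RPM), which overlapped that of the 742 RPM at 8-9 h. Its level was at or above 50% of the highest from 6-7 h to 9-10 h and was 219 RPM at 10-11 h. The ratio of nerfin-1 to ase reads was 1.31 at 2-3 h, 0.525 at 5-6 h, 1.29 at 6-7 h, 6.49 at 9-10 h and 2.91 at 10-11 h.

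**Figure D2:**
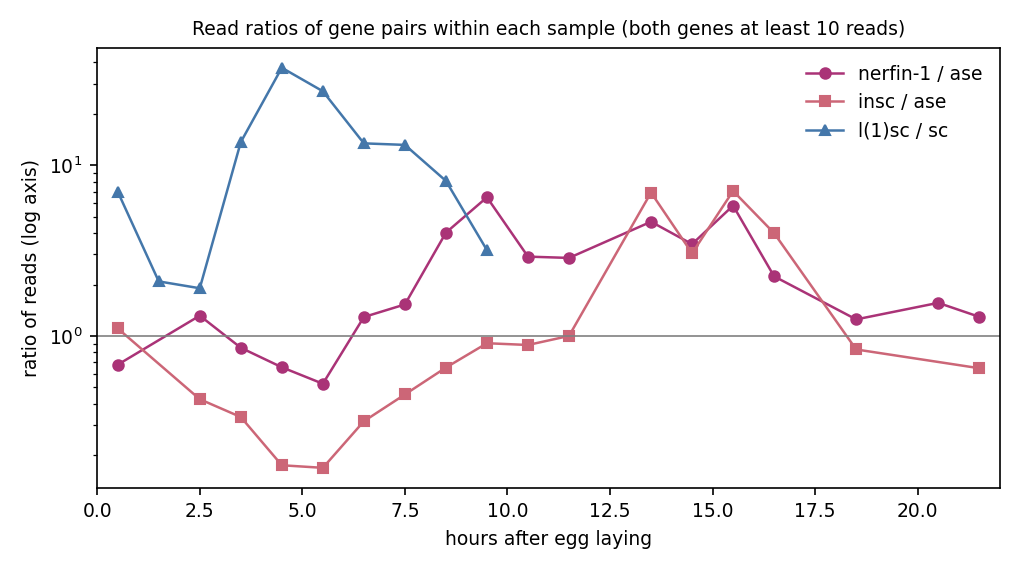
Ratio of reads of 2 genes within each sample (vertical log axis) against hours after egg laying, for samples with at least 10 reads of both genes. The nerfin-1 to ase ratio was 0.525 at 5-6 h, 6.49 at 9-10 h and 2.91 at 10-11 h. The l(1)sc to sc ratio was highest, 37.2, at 4-5 h.

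Ordered by the center of activity, the mean hour weighted by RPM, the genes ran from sc at 4.46 h and l(1)sc at 5.20 h over dpn at 6.16 h, ase at 6.90 h and wor at 7.26 h to nerfin-1 at 8.31 h, insc at 9.03 h and pros at 12.4 h. These centers have no error of their own with 1 sample per hour. With TMM and with DESeq2 size factors, both scalings of the same reads, the pros center was 13.5 h and 14.3 h. That of insc ranged over 8.93 to 9.63 h under the alternatives. Neighbors in the order of highest hours that were not separated by counting intervals were 4-5 h and 5-6 h for l(1)sc, 5-6 h and 6-7 h for wor, 6-7 h and 7-8 h for insc and 8-9 h and 9-10 h for nerfin-1, and for sc, ase and dpn the highest hour stood above both neighbors. The share of summed RPM in the best 8 consecutive hours was 98.1% for l(1)sc, 95.5% for sc, 94.6% for ase, 91.8% for wor, 91.0% for nerfin-1, 88.4% for dpn, 75.9% for insc and 48.3% for pros. A share of at least 60% was reached by 7 of the 8 genes, against 53.5% of the 7074 genes that reached 10 RPM in some hour, and the median share was 91.4% for the 8 genes and 61.6% for those genes.

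**Figure D3:**
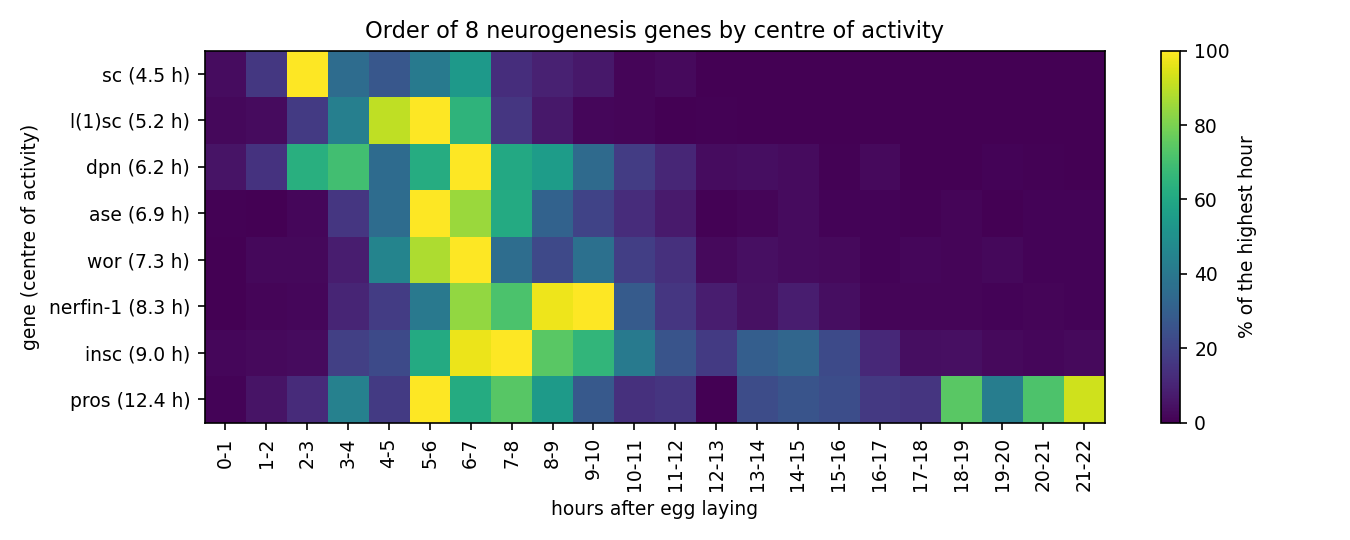
Level of each gene as a percentage of its own highest hour (color scale, 0 to 100%) by hour after egg laying, with genes ordered by center of activity, given in brackets. The rows are sorted by center, from sc at 4.5 h to pros at 12.4 h, and the brightest cell is at 2-3 h for sc, 5-6 h for l(1)sc, ase and pros, 6-7 h for dpn and wor, 7-8 h for insc and 9-10 h for nerfin-1.

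Neighboring windows of 3 hours were compared to ask when the genes changed. The hours of a window are successive stages and not replicates, so SD and SE also hold change within the window. The 3-6 h window was set against 0-3 h first. The level of 6 genes rose, namely l(1)sc, ase, wor, insc, pros and nerfin-1, where 10.5% of all genes rose and 16.4% fell. Of these calls 39.1% were rises, against 42.5% with TMM and 53.0% with DESeq2 size factors, both scalings of the same reads. The median difference of the 8 genes was 3.61 on the log2(RPM + 1) scale and that of all genes 0.

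ase rose most, with 294 ± 257 RPM at 3-6 h and 5.16 ± 5.30 RPM at 0-3 h (SD, n = 3 hours each), a log2 difference of 5.52 ± 0.65 (SE, limma adjusted p = 1.14e-06). nerfin-1 averaged 173 ± 119 RPM at 3-6 h and 8.58 ± 6.53 RPM at 0-3 h, a log2 difference of 4.29 ± 0.59 (limma adjusted p = 7.87e-06). wor averaged 118 ± 100 RPM at 3-6 h and 3.84 ± 2.62 RPM at 0-3 h, a log2 difference of 4.26 ± 0.68 (limma adjusted p = 4.39e-05). For these 3 genes every hour of the later window lay above every hour of the earlier one. The share of all genes whose hours did not overlap was not counted, in this or any later comparison.

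The hours did not overlap for l(1)sc either, which averaged 334 ± 130 RPM at 3-6 h and 31.6 ± 36.2 RPM at 0-3 h (log2 difference 3.88 ± 0.73, limma adjusted p = 0.000266), nor for insc, which averaged 55.0 ± 37.7 RPM at 3-6 h and 3.91 ± 0.96 RPM at 0-3 h (log2 difference 3.33 ± 0.45, limma adjusted p = 5.63e-06). pros averaged 5.42 ± 4.27 RPM at 3-6 h and 0.628 ± 0.583 RPM at 0-3 h, a log2 difference of 1.81 ± 0.50 (limma adjusted p = 0.00815), and this call was lost without the 5-6 h sample (1.31, limma adjusted p = 0.0764, with a range of 0.0023 to 0.0764 over all samples left out in turn).

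sc and dpn did not pass this test. sc averaged 13.3 ± 2.71 RPM at 3-6 h and 15.3 ± 20.3 RPM at 0-3 h, and dpn 51.0 ± 16.6 RPM at 3-6 h and 25.5 ± 28.6 RPM at 0-3 h, with log2 differences of 0.72 ± 0.67 and 1.54 ± 0.65 (limma adjusted p = 0.519 and 0.0878). For sc the mean RPM was lower at 3-6 h while the log2 difference was positive, and the sign of that difference turned with edgeR (-0.23) and without the 0-1 h sample (-0.26), so no direction is given for sc. At 2-3 h sc held 38.5 RPM and dpn 58.1 RPM, and without that sample both rose (1.82 and 2.43, limma adjusted p = 0.0145 and 0.00374). Over all samples left out in turn these p-values ranged up to 0.879 for sc and 0.484 for dpn.

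At 6-9 h against 3-6 h, 2 genes rose, nerfin-1 and insc, where 6.89% of all genes rose and 1.73% fell. Rises were 79.9% of the calls, 74.4% with TMM and 61.8% with DESeq2 size factors. The median difference was 0.43 for the 8 genes and 0.14 for all genes. nerfin-1 averaged 641 ± 98.9 RPM at 6-9 h and 173 ± 119 RPM at 3-6 h (log2 difference 2.10 ± 0.59, limma adjusted p = 0.0271). insc averaged 146 ± 22.6 RPM at 6-9 h and 55.0 ± 37.7 RPM at 3-6 h (log2 difference 1.58 ± 0.45, limma adjusted p = 0.0275). The hours did not overlap for either gene.

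Neither of these calls held under every setting. Each was lost under 3 of 11 alternatives. With edgeR on recovered reads the adjusted p was 0.0754 for nerfin-1 and 0.0583 for insc, and with DESeq2 0.0648 and 0.0513. The third was DESeq2 size factors for nerfin-1 (limma adjusted p = 0.0575) and other bounds of the later windows for insc (limma adjusted p = 0.0584). Without single samples of either window the limma adjusted p reached 0.189 for nerfin-1 and 0.183 for insc. The nerfin-1 call was lost without 3-4 h, 4-5 h, 7-8 h or 8-9 h, and the insc call without any of these or 6-7 h. l(1)sc averaged 125 ± 134 RPM at 6-9 h and 334 ± 130 RPM at 3-6 h, a log2 difference of -1.93 ± 0.73 that did not pass (limma adjusted p = 0.111). Without the 6-7 h sample, where l(1)sc still held 278 RPM, it fell (-2.81, limma adjusted p = 0.0116, with a range up to 0.535 over samples left out).

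At 9-12 h against 6-9 h, 2 genes fell, l(1)sc and ase, where 3.18% of all genes fell and 11.2% rose. Rises were 77.9% of the calls, 65.0% with TMM and 78.4% with DESeq2 size factors. The median difference was -1.59 for the 8 genes and 0.12 for all genes. l(1)sc averaged 5.08 ± 3.63 RPM at 9-12 h and 125 ± 134 RPM at 6-9 h (log2 difference -4.02 ± 0.73, limma adjusted p = 0.00111), a call that no alternative and no sample left out removed. ase averaged 78.1 ± 37.7 RPM at 9-12 h and 345 ± 156 RPM at 6-9 h (log2 difference -2.13 ± 0.65, limma adjusted p = 0.0283), a call lost without the 6-7 h, 7-8 h, 10-11 h or 11-12 h sample, with an adjusted p of up to 0.163. The other 6 genes had differences between -1.91 for sc and -1.01 for wor and did not pass (limma adjusted p of 0.0589 for sc, 0.0646 for dpn, 0.0715 for pros, 0.104 for insc, 0.185 for nerfin-1 and 0.373 for wor).

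For 5 of these 6 genes the side of the threshold hung on 1 sample. Without the 9-10 h sample, the deepest of the series, sc, dpn, insc and nerfin-1 fell (differences -2.24, -2.25, -1.44 and -1.96, limma adjusted p = 0.0449, 0.0356, 0.0471 and 0.0215), and 6 genes fell in all. sc and dpn also fell without the 0-1 h or the 2-3 h sample, sc without 8-9 h and pros without 18-19 h. The 0-1 h, 2-3 h and 18-19 h samples lie outside both windows. With them left out the differences stayed at -1.91 for sc, -1.82 for dpn and -1.36 for pros, so only the p-values moved. Over all samples left out in turn, the adjusted p ranged up to 0.368 for sc, 0.275 for dpn, 0.420 for insc, 0.208 for pros and 0.657 for nerfin-1.

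At 13-16 h against 9-12 h, 5 genes fell, l(1)sc, ase, wor, dpn and nerfin-1, where 20.1% of all genes fell and 11.7% rose. The median of all genes was itself -0.46 here, and -0.16 and 0.02 with TMM and DESeq2 scaling. The median of the 8 genes was -2.47, or -2.63 with sc and l(1)sc, which had no read at 13-16 h, at their bounds. Of the calls among all genes, 36.9% were rises, against 60% with TMM and 75.3% with DESeq2 size factors, and 4 of the 5 genes fell under each of these scalings.

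ase averaged 9.86 ± 6.67 RPM at 13-16 h and 78.1 ± 37.7 RPM at 9-12 h (log2 difference -2.92 ± 0.65, limma adjusted p = 0.00228). nerfin-1 averaged 40.9 ± 16.9 RPM at 13-16 h and 367 ± 344 RPM at 9-12 h (log2 difference -2.78 ± 0.59, limma adjusted p = 0.00156). wor averaged 7.68 ± 2.00 RPM at 13-16 h and 57.8 ± 30.5 RPM at 9-12 h (log2 difference -2.66 ± 0.68, limma adjusted p = 0.00599). dpn averaged 2.27 ± 1.45 RPM at 13-16 h and 19.3 ± 11.3 RPM at 9-12 h (log2 difference -2.60 ± 0.65, limma adjusted p = 0.00533). These 4 genes fell under every alternative and without any 1 sample, and their hours did not overlap.

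l(1)sc had 0 reads at 13-16 h and 164 reads at 9-12 h (log2 difference -2.35 ± 0.73, limma adjusted p = 0.0187). A count of 0 over the 5801271 reads of 13-16 h allows 0.517 RPM, so l(1)sc was at least 9.83-fold lower than its mean of 5.08 RPM at 9-12 h. The call was lost under 5 alternatives and without the 9-10 h, 10-11 h or 15-16 h sample, with an adjusted p of up to 0.238. sc also had 0 reads at 13-16 h and was at least 2.66-fold lower than its mean of 1.38 RPM at 9-12 h, without passing (limma adjusted p = 0.185).

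The genes of unequal division did not pass in this comparison. insc averaged 45.9 ± 8.94 RPM at 13-16 h and 71.6 ± 32.4 RPM at 9-12 h (log2 difference -0.55 ± 0.45, limma adjusted p = 0.349). pros averaged 2.45 ± 0.154 RPM at 13-16 h and 1.93 ± 0.785 RPM at 9-12 h (log2 difference 0.27 ± 0.50, limma adjusted p = 0.706). Whether insc differed from the 5 genes that fell was not tested.

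At 16-19 h against 13-16 h, 2 genes fell, insc and nerfin-1, where 10.1% of all genes fell and 3.64% rose. The median of all genes was -0.44 here, and 0 and 0.04 with TMM and DESeq2 scaling, and that of the 6 genes with reads in both windows was -1.02. Rises were 26.5% of the calls, 63.3% with TMM and 65.4% with DESeq2 size factors, and under each of these scalings insc was the 1 gene that fell. insc averaged 10.5 ± 6.93 RPM at 16-19 h and 45.9 ± 8.94 RPM at 13-16 h (log2 difference -2.17 ± 0.45, limma adjusted p = 0.00422). Its hours did not overlap, and the call was lost with edgeR (adjusted p = 0.0708) and with windows of other bounds (limma adjusted p = 0.0617) and kept without any 1 sample. nerfin-1 averaged 10.8 ± 0.874 RPM at 16-19 h and 40.9 ± 16.9 RPM at 13-16 h (log2 difference -1.76 ± 0.59, limma adjusted p = 0.0496), a call lost under 9 of 11 alternatives and without 14 of the 22 samples in turn, with an adjusted p of up to 0.329.

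At 19-22 h against 16-19 h, 0 genes of the 8 changed (limma, adjusted p), with 1 at an unadjusted p under 0.05 and 0 by edgeR or DESeq2. Of all genes 1.55% rose and 1.39% fell, so that 52.7% of the calls were rises, against 42.0% with TMM, 41.2% with DESeq2 size factors, 21.2% with DESeq2 (33 rises, 123 falls) and 6.9% with edgeR (4 rises, 54 falls). insc averaged 3.65 ± 0.743 RPM at 19-22 h and 10.5 ± 6.93 RPM at 16-19 h (log2 difference -1.16 ± 0.45, limma adjusted p = 0.195). pros averaged 6.98 ± 2.56 RPM at 19-22 h and 3.58 ± 3.42 RPM at 16-19 h (log2 difference 0.99 ± 0.50, limma adjusted p = 0.362), and its hours overlapped.

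**Figure D4:**
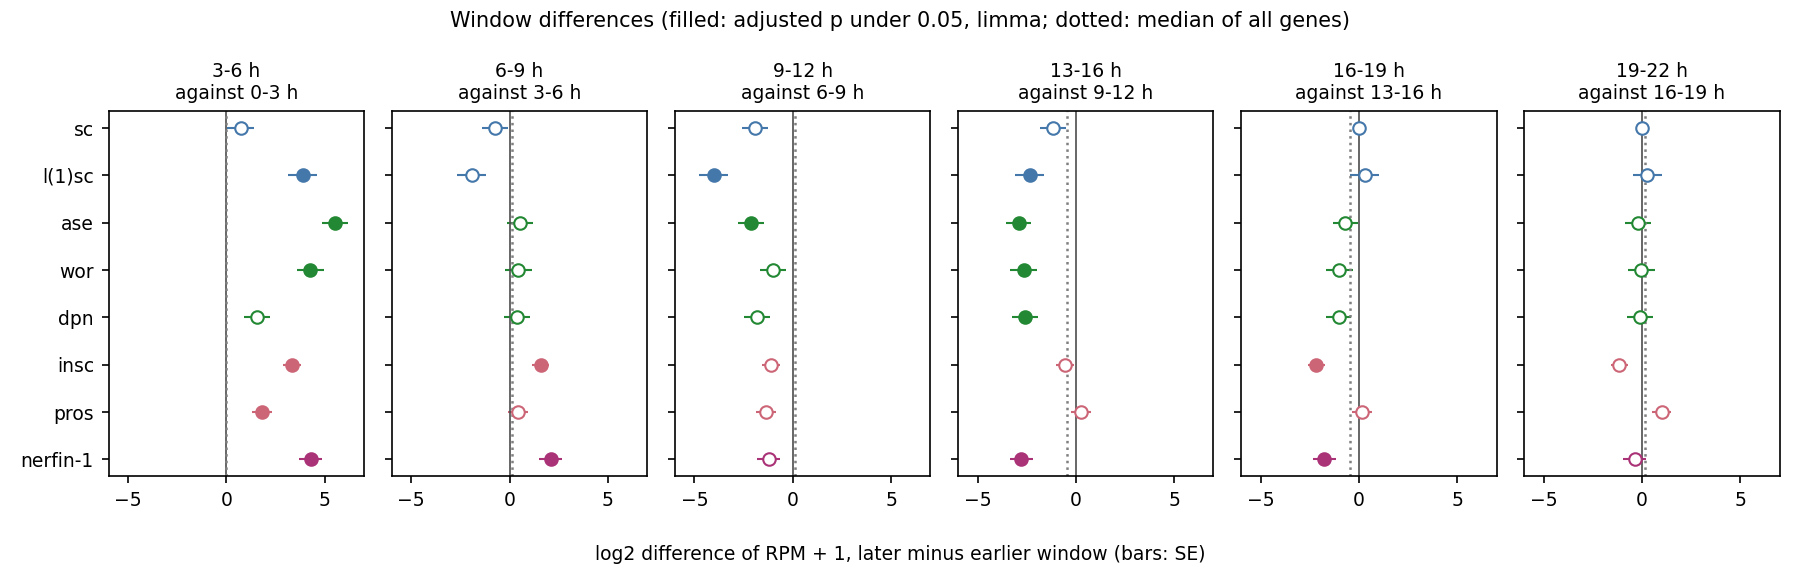
Log2 difference of RPM + 1 between neighboring windows of 3 hours, later minus earlier, for each gene (rows) and comparison (panels), with SE bars. Filled points passed an adjusted p of 0.05 in limma and the dotted line is the median of all genes. Of the 8 genes, 6 lie to the right and filled at 3-6 h against 0-3 h, and 5 to the left and filled at 13-16 h against 9-12 h.

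The use of the 3 nerfin-1 TSCs was followed over the hours in which it had at least 50 reads. The main TSC held 98.0% of the reads at 6-7 h (interval 97.6 to 98.4%, 5456 reads) and 96.2% at 9-10 h (interval 95.9 to 96.6%, 13178 reads). Its share was 90.2% at 10-11 h (interval 87.9 to 92.1%, 787 reads), 83.2% at 11-12 h (interval 77.8 to 87.5%, 232 reads) and 78.6% at 13-14 h (interval 66.2 to 87.3%, 56 reads). These 3 intervals lay below that of 9-10 h. At 14-15 h its share was 98.6% (interval 92.2 to 99.7%, 69 reads), at 15-16 h 93.1% (interval 85.8 to 96.8%, 87 reads) and at 16-17 h 93.3% (interval 86.9 to 96.7%, 105 reads), and these intervals overlapped that of 9-10 h.

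The main TSC averaged 346 ± 342 RPM at 9-12 h and 627 ± 98.3 RPM at 6-9 h. The second TSC averaged 16.8 ± 3.69 RPM at 9-12 h and 13.0 ± 4.88 RPM at 6-9 h, and the third 6.85 ± 0.821 RPM at 9-12 h and 5.60 ± 0.464 RPM at 6-9 h (SD, n = 3 hours each). The mean of the main TSC was lower at 9-12 h than at 6-9 h, and those of the minor TSCs were slightly higher. At 13-16 h the 3 TSCs averaged 37.8 ± 19.1, 2.03 ± 2.43 and 1.31 ± 0.916 RPM. The difference between the TSCs was not tested.

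**Figure D5:**
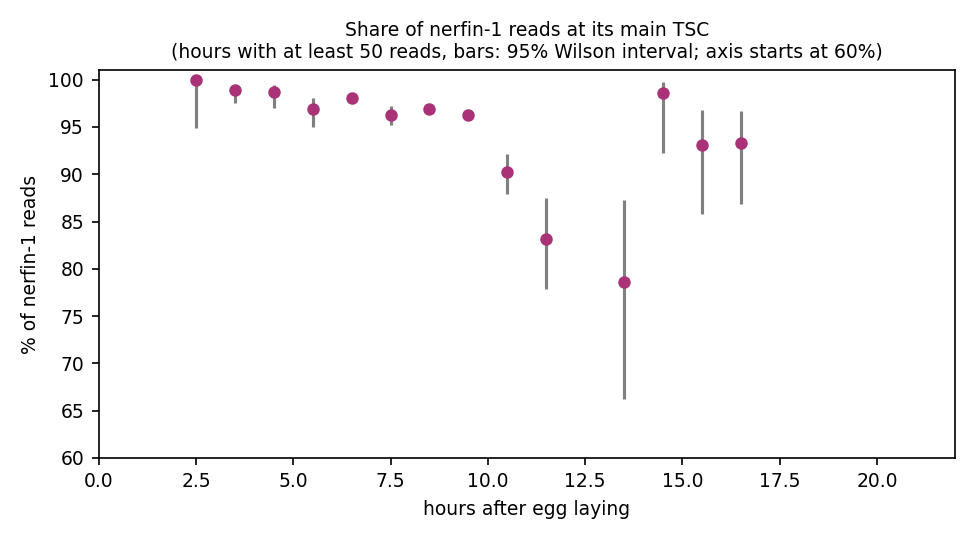
Share of nerfin-1 reads at its main TSC (vertical axis in percent, from 60%) against hours after egg laying, for samples with at least 50 nerfin-1 reads, with 95% Wilson intervals as grey bars. The share is 96.2% at 9-10 h, 83.2% at 11-12 h and 98.6% at 14-15 h.

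Likeness of profiles was described by Pearson's r of log2(RPM + 1) over the 22 hours, whose points share 1 library and differ in depth. The closest pairs among the 8 genes were ase and wor (0.937), insc and nerfin-1 (0.933), sc and l(1)sc (0.927) and wor and nerfin-1 (0.924). dpn was closest to l(1)sc (0.885) and sc (0.883), and pros was closest to ase at 0.470. Among the 7073 other genes that reached 10 RPM, dpn had 218 at an r of 0.9 or more, with FBgn0082598 the nearest at 0.979. sc had 35 such genes, with FBgn0003719 the nearest at 0.978, and pros had 0, its nearest gene reaching 0.814.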

How the data were processed

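RAMPAGE reads of the 22 hourly samples were mapped by the authors with STAR (version not given in the sources used here) to the FlyBase r1.4 genome, TSCs were called on pooled reads, and a table of RPM per gene and a table of RPM per TSC were deposited. Per the study's methods, TSCs known through orthologs in another species were added to genes. A deposited table of scores per gene, upsampled by the authors, smoothed and warped to D. melanogaster time, was used only as an alternative for the highest hour, and the score column of the TSC list was not used. All RPM values (100% in both tables, within 0.01 read) were whole multiples of 1 read, which gave reads and depth. The listed genes hold 62.2 to 86.1% of the reads of a sample. No value column was left unmapped.

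Since the deposited unit is RPM and not counts, limma 3.58.1 (R 4.3.3, trend option) on log2(RPM + 1) gave the reported tests. They were fitted to the 8249 genes that reached 2 RPM, with a natural spline of hour of 4 df or with windows of 3 hours, the 12-13 h sample being a level of its own, with a threshold of 0.05 on the p adjusted by Benjamini-Hochberg. P-values measure only the scatter of hourly samples. Fold changes on this scale understate those of weak genes. edgeR 4.0.16 and DESeq2 1.42.0 on recovered reads, TMM and DESeq2 scaling, other filters, pseudocounts, splines and windows, thinning and leaving out each sample were alternatives. The tests were tried on simulated data first. Descriptions used Python 3.11.15 with pandas 2.3.3.

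The members and lists were chosen with earlier results of these data known. The genes named are the 10 listed, in order of role, and the gene nearest in profile for at most 2 of them. A list of 40 other neurogenesis genes and the promoter and protein sequences could not be matched by name to the RefSeq table of assembly Prin_Dsim_3.1 (0 of 40 and 0 of 10) and are not used here.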

Additional observations from a re-analysis of the deposited data

How the results depend on the processing

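The 8 genes changed smoothly over the 22 hours under all 11 alternatives and without any 1 sample (8 of 8 each time), and the count of all genes called, 7625, ranged over 6672 to 7699 under the alternatives and over 7466 to 7699 with samples left out in turn. Of 90 alternatives to the summary counts 78 stayed within 1.5 times. Counts of all genes changed moved further in 4 windows. At 6-9 h against 3-6 h, 711 genes changed, and 1143 with DESeq2. At 13-16 h against 9-12 h, 2626 changed, and 1690 with DESeq2 size factors, 1636 with edgeR, 1616 with DESeq2 and 1273 with windows of 12-15, 15-18 and 18-22 h. At 16-19 h against 13-16 h, 1133 changed, and 273 with edgeR, 483 with DESeq2 and 2119 with those windows. At 19-22 h against 16-19 h, 243 changed, and 151 with a minimum of 10 RPM, 58 with edgeR, 156 with DESeq2 and 411 with those windows. Leaving out each sample in turn gave 1717 to 2372 genes at 3-6 h (main value 2222), 290 to 932 at 6-9 h, 412 to 1367 at 9-12 h (main value 1183), 1447 to 3308 at 13-16 h, 300 to 2102 at 16-19 h and 106 to 346 at 19-22 h, each against the window before. The cause was not tested. Of 666 alternatives to single results of the 8 genes, 620 kept direction and call, 22 lost and 4 gained a call, 13 moved and 7 changed sign, and none of those 7 was called in either setting. Sign changes were sc at 3-6 h (-0.23 with edgeR, -0.0726 with DESeq2), wor at 6-9 h (-0.0135 with DESeq2), insc at 13-16 h (0.0252 with DESeq2 size factors) and, with the other windows, pros at 13-16 h (-0.32), l(1)sc at 16-19 h (-0.39) and ase at 19-22 h (0.21). With samples left out, uncalled differences also spanned 0 for sc at 3-6 h (-0.26 to 1.82, called without 2-3 h), for ase (-0.12 to 1.21), wor (-0.55 to 1.16) and pros (-0.0788 to 0.93) at 6-9 h, for pros at 16-19 h (-0.40 to 0.47), and for ase (-0.47 to 0.27), wor (-0.32 to 0.16) and dpn (-0.37 to 0.46) at 19-22 h. insc also passed at 9-12 h with TMM (adjusted p = 0.0494, range 0.0493 to 0.168) and at 19-22 h with the other windows (adjusted p = 0.0349, range to 0.364), and dpn at 9-12 h with a pseudocount of 5 (adjusted p = 0.0267, range to 0.122). The highest hour of sc, ase and dpn was the same under all 5 alternatives. That of insc was 6-7 h with either scaling, that of nerfin-1 8-9 h with TMM or thinned reads, and that of pros 21-22 h with either scaling and 6-7 h with thinned reads. In the smoothed table, whose time is that of D. melanogaster, the highest points of l(1)sc, wor, nerfin-1 and pros fell in hours starting at 4, 5, 8 and 21 h. The number of genes tied to promoters was 6 when sums could differ by 1%. Single TSCs and pairs were searched too, an alternative chosen after seeing the data, as was TMM without 12-13 h. That search added neither dpn nor pros, so the number stayed 6. On its own it would not have tied nerfin-1, whose reads equaled no single TSC or pair, and those of insc equaled 2 single TSCs. No paired analysis was possible because each hour has 1 sample and replicate numbers only name samples. The values of sc and pros rest on 658 and 366 reads over all hours.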
